A study of Homo sapiens with 16 samples.

Results

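The nonhomologous end joining genes, which encode the core proteins that rejoin broken DNA ends, were followed in both cell lines of the series. The members were listed by name, with earlier results of these data known and by no threshold on a value, as XRCC5, XRCC6, PRKDC, LIG4, XRCC4, NHEJ1, DCLRE1C, POLL and POLM. All 9 were found by Ensembl ID among the 18332 genes of the deposited table. RNA sequencing was run on 16 samples, 4 in each of 4 groups. MDA-MB-231 and MDA-MB-468, established human breast cancer cell lines labelled ER negative (lacking the estrogen receptor), were each kept for 48 hours in 5 mM glucose (low, the control) or 25 mM glucose (high, a model of hyperglycemia). All 4 groups were grown in culture flasks. Per the study's methods the glucose media held no serum, and cells were first conditioned in low glucose, so these groups model a rise in glucose in serum-free culture. The labels name no osmotic control for the added glucose. The methods give different routine media for the lines (DMEM for MDA-MB-231, RPMI for MDA-MB-468), so line and medium cannot be told apart. The labels and methods do not say whether replicates were independent cultures, and p-values measure only the spread between these samples.

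Nonhomologous end joining works on both ends of a double-strand break without a sister template and through most of the cell cycle. A ring of XRCC5 and XRCC6 (the Ku heterodimer) threads onto each end and recruits the kinase PRKDC (the DNA-PK catalytic subunit). DCLRE1C (Artemis) trims ends that cannot be joined directly, POLL and POLM fill gaps, and the ligase LIG4 seals the strands while held by XRCC4 and NHEJ1 (XLF). The same proteins complete V(D)J recombination in lymphocytes, and in epithelial cells they repair breaks made by radiation, drugs and oxidants.

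Libraries held between 14094597 and 24425916 reads, recovered from the deposited values, and no 2 replicates looked like 1 library (chi-square per gene of 2.02 to 5.20 over 24 pairs, where 1 would be counting error alone). The marker genes of the labels were checked first. VIM, a mesenchymal filament protein, was at 5247 to 5694 CPM (reads scaled to library size) in the 8 MDA-MB-231 samples and at 1.001 to 2.19 CPM in the 8 MDA-MB-468 samples. The epithelial cadherin CDH1 was at 123 to 135 CPM in MDA-MB-468 and at most 0.625 CPM in MDA-MB-231. KRT6B, a basal keratin, had 0 reads in all 8 MDA-MB-231 samples, and SPARC, listed as a marker of that line, was at most 0.477 CPM there. ESR1, the estrogen receptor, was at most 0.170 CPM in MDA-MB-231 and between 2.41 and 4.41 CPM in MDA-MB-468. PGR, CD3E and PECAM1 were not analysed here. The leukocyte gene PTPRC was under 1 CPM in every sample, and the collagen gene COL1A1 was at 15.0 to 21.7 CPM. The 5 MDA-MB-468 markers (CDH1, EPCAM, EGFR, KRT5 and KRT6B) summed to 5260.2 to 5591 CPM in that line and 495 to 552 CPM in MDA-MB-231. In bulk RNA, less of a transcript per cell and fewer cells with it cannot be told apart.

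Several members begin beside a gene transcribed the other way. The start of PRKDC is 7 nt from that of MCM4 (a subunit of the replicative helicase), the start of LIG4 24 nt from that of ABHD13, and the start of XRCC6 120 nt from that of DESI1 (a deSUMOylating peptidase). The starts of XRCC4 and TMEM167A cross, so that the genes overlap by 366 nt with no shared exon of their canonical transcripts. POLL lies wholly inside DPCD and DCLRE1C overlaps SUV39H2 by 6957 nt, in both cases on the opposite strand and without canonical exons in common. Exons of NHEJ1 overlap those of the IDs ENSG00000286606 (by 666 nt) and ENSG00000280537 (by 1308 nt), neither of which was analysed here. ENSG00000280537 is annotated as protein coding on the same strand as NHEJ1, so strand cannot separate their reads in the shared exons. How the authors' counting used strand is not given in the sources used here, so reads of NHEJ1 and of the antisense ENSG00000286606 may not be separated. The same holds for PRKDC, of which 158 nt of exon lie opposite the ID ENSG00000287959, also not analysed here.

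XRCC6 and LIG4 share a short stretch with a neighbor measured in the same libraries. DCLRE1C and NHEJ1 had the largest negative differences in glucose response between the lines. The sequences ahead of these 4 members are shown as description, and their part in the results was not tested. Each was read from GRCh37 on the member's own strand, 5′ to 3′, and ends at the base before its annotated start. XRCC6 (chr22:42017048-42017166, 119 nt) and LIG4 (chr13:108870717-108870739, 23 nt) are given over the whole stretch between the paired starts, and NHEJ1 (chr2:220025592-220025841) and DCLRE1C (chr10:14996432-14996681) over 250 nt. Capitals mark matches, on either strand, to any of 5 motifs. The GC box was searched as GGGCGG and the CCAAT box by the letters of its name. An ETS motif was taken as CCGGAAG, an E2F motif as TTTNNCGC and an E-box as CACGTG. The marked matches do not overlap one another.
XRCC6: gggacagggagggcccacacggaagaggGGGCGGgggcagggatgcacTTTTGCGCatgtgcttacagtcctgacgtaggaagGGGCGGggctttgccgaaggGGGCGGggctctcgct
LIG4: tccgagcatgcgcagaagccgct
NHEJ1: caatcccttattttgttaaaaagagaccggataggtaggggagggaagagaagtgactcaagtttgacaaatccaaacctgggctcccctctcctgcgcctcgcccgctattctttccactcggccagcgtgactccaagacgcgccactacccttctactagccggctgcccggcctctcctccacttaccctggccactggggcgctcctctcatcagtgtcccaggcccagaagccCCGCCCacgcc
DCLRE1C: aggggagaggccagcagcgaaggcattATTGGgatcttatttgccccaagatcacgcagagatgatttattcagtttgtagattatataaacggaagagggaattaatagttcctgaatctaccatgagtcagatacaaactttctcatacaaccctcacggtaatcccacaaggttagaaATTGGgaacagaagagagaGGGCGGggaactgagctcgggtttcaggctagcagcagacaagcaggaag

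In the stretch shared with DESI1, XRCC6 had 3 GC boxes and 1 E2F match, whereas the 23 nt between LIG4 and ABHD13 held none of the 5 motifs. The DCLRE1C window held 1 GC box and 2 CCAAT boxes, and the NHEJ1 window a single GC box close to the start. Over the 250 nt ahead of every member, 5 of 9 had a GC box, 4 an ETS motif, 2 a CCAAT box, 1 (XRCC6) an E2F match and 0 an E-box. Among the windows of 17647 genes of the table, 51.8% had a GC box, 32.1% a CCAAT box, 9.96% an ETS motif, 7.11% an E2F match and 7.20% an E-box. These matches describe letters and are not measured binding sites.

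XRCC5 and NHEJ1 lie on the same chromosome, as do DCLRE1C and POLL, and no member is next to another. On GRCh37 the Ku genes are at chr2:216972187-217071026 (XRCC5, plus strand) and chr22:42017167-42060052 (XRCC6, plus strand), and PRKDC is at chr8:48685672-48872738 (minus strand) with 87 exons and a canonical transcript of 13458 nt, the longest of the members. LIG4 is at chr13:108859787-108870716 (minus), XRCC4 at chr5:82373317-82649606 (plus) and NHEJ1 at chr2:219934077-220025591 (minus). DCLRE1C is at chr10:14939358-14996431, POLL at chr10:103338639-103348027 and POLM at chr7:44111661-44122129, all on the minus strand.

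Per kilobase of canonical transcript, the Ku genes were far above the other members, in the order XRCC6, XRCC5, PRKDC in all 4 groups with no overlap between neighbors. In low-glucose MDA-MB-231 the levels were 3001 ± 54.6 normalized reads per kb for XRCC6, 1863 ± 61.5 for XRCC5 and 475 ± 23.0 for PRKDC (SD, n = 4). In low-glucose MDA-MB-468 they were 4138 ± 133, 3074 ± 81.0 and 593 ± 26.6. A step of 3.15-fold (MDA-MB-231) or 4.45-fold (MDA-MB-468) separated PRKDC from the next member in low glucose. That next member was POLM in MDA-MB-231 (151 ± 8.30 normalized reads per kb), and its range overlapped that of POLL. In MDA-MB-468 it was LIG4 (133 ± 2.60 normalized reads per kb), above POLM (98.3 ± 8.72) without overlap in low glucose and with overlap in high glucose. XRCC4 and LIG4 overlapped in both MDA-MB-231 groups. DCLRE1C and NHEJ1 were the lowest of the 9 in MDA-MB-231, at 57.9 ± 4.48 and 27.4 ± 2.58 normalized reads per kb in low glucose. In low-glucose MDA-MB-468, XRCC4, NHEJ1 and DCLRE1C filled the last places with overlapping neighbors, and in high glucose the order of these was NHEJ1, XRCC4, DCLRE1C, again overlapping. The order after PRKDC depends on the length used. NHEJ1, with a canonical transcript of 8020 nt and a coding part of 897 nt, ranked 5 of 9 per kb of coding sequence in MDA-MB-231 and 4 of 9 in MDA-MB-468. On that scale LIG4 was the lowest of the 9 in both MDA-MB-231 groups, and in MDA-MB-468 it ranked 5 in low and 6 in high glucose, behind NHEJ1.

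**Figure D1:**
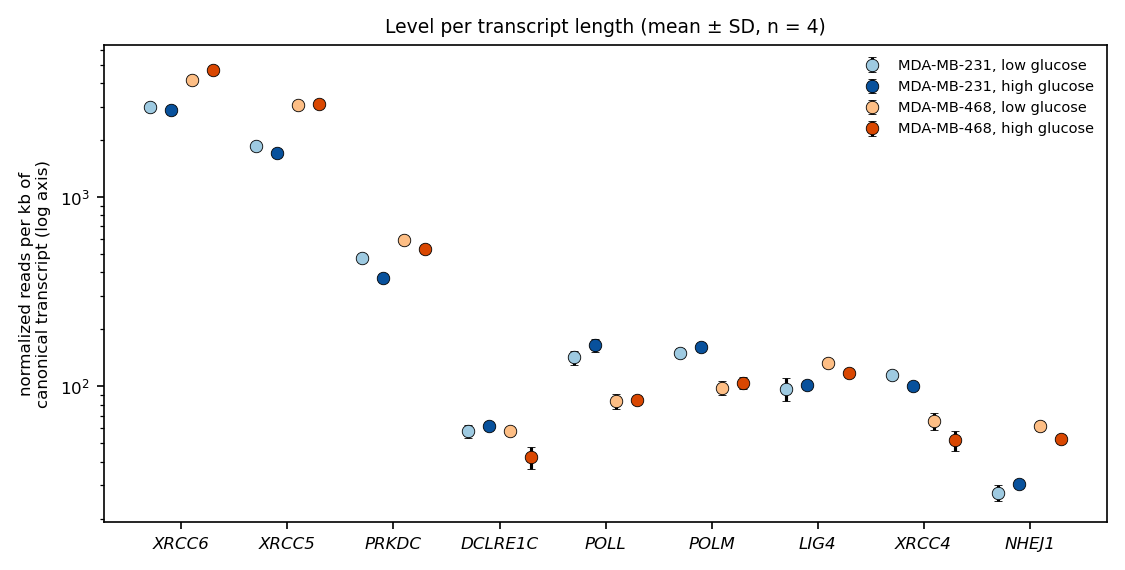
Normalized reads per kilobase of canonical transcript (log axis) of the 9 genes in the 4 groups, as mean ± SD of 4 samples. XRCC6, XRCC5 and PRKDC stand above the other 6 genes in every group, and XRCC4, POLL and POLM are lower in MDA-MB-468 than in MDA-MB-231.

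**Figure D2:**
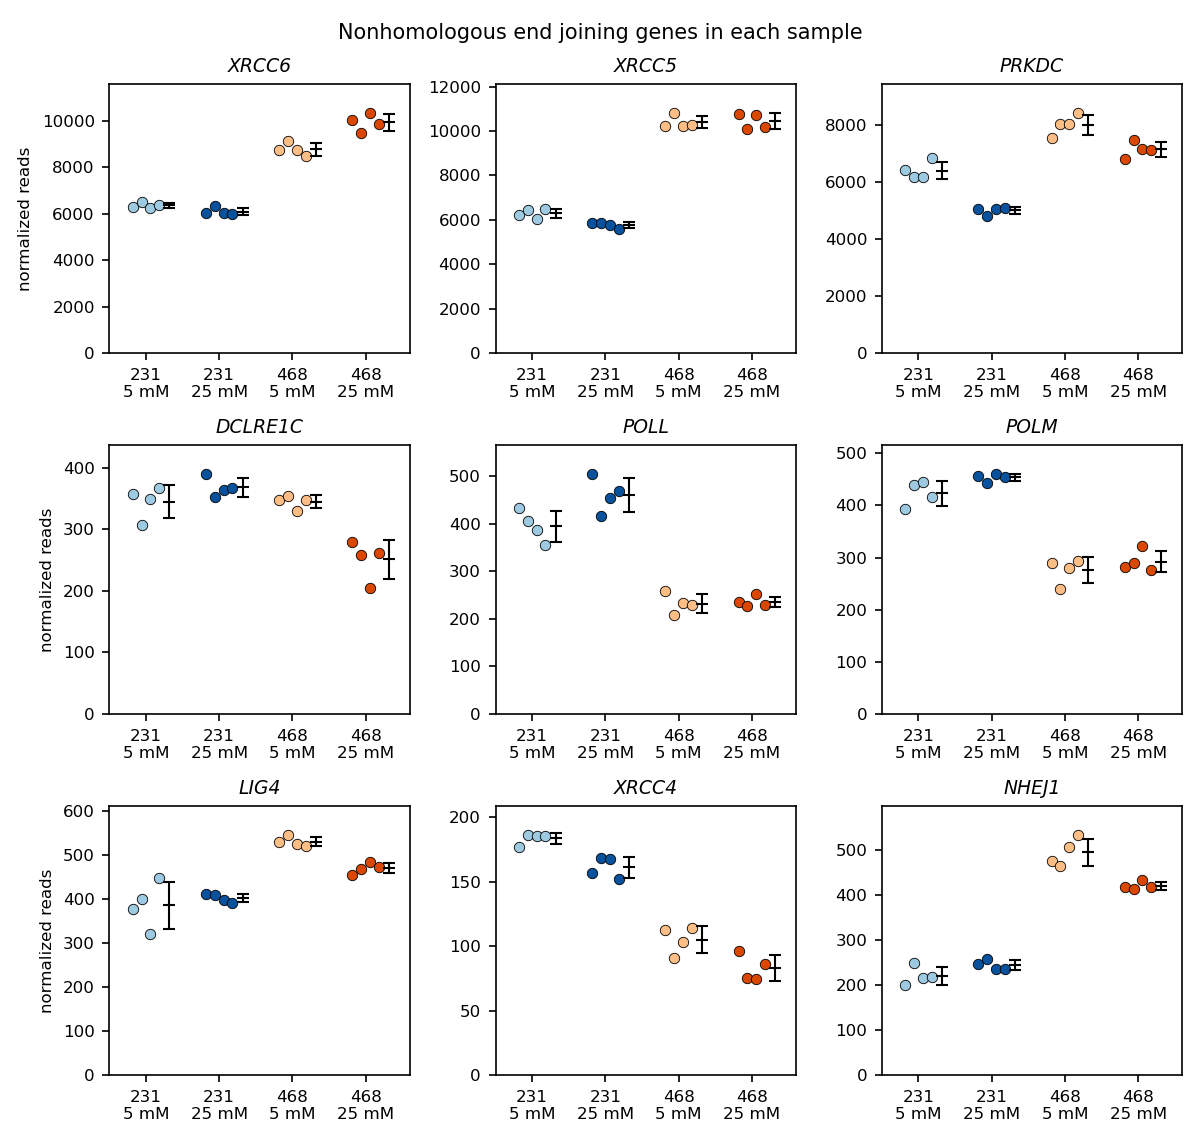
Normalized reads of each gene in every sample (axes start at 0), with the 4 replicates of a group side by side and the group mean ± SD to their right. PRKDC is lower in high than in low glucose in both lines, and DCLRE1C and NHEJ1 are lower in high glucose in MDA-MB-468.

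The first question was how the members responded to high glucose in MDA-MB-231. PRKDC, which encodes the kinase that Ku recruits, and XRCC5, which encodes the larger Ku subunit, fell, and the gap-filling polymerase gene POLL rose. The remaining 6 members did not pass the test (limma, adjusted p under 0.05 over all genes tested). Thus 3 of 9 members were called, 1 higher and 2 lower, where 15.1% of 14884 genes tested were called, 5.71% higher and 9.37% lower. The median log2 fold change of the members was 0.07, against 0.00 for all genes tested. The background calls were 850 higher and 1395 lower, a split that became 1027 and 1114 under quantile rescaling.

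PRKDC was at 6405, 6159, 6169.7 and 6821 normalized reads in the low-glucose samples of MDA-MB-231 and at 5052, 4811, 5055 and 5069 in the high-glucose samples. Every high-glucose sample was below every low-glucose sample, by a gap wider than the spread within either group. The log2 fold change was -0.35 (SE 0.03, limma adjusted p = 1.70e-06), and it stayed between -0.37 and -0.28 with the call kept in all 23 alternative analyses. In this comparison the length of a transcript moved with its response: Spearman's rho across 14289 genes was -0.194, and the median log2 fold change of 1149 genes of at least 8000 nt was -0.06. MCM4, whose start is 7 nt from that of PRKDC, fell by 0.35 on the log2 scale in the same libraries (limma adjusted p = 1.69e-05). The 12 proliferation markers fell too, with a summed level of 1912 to 1969 CPM in low and 1405 to 1424 CPM in high glucose. The part of proliferation in the members' results was not tested.

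XRCC5 was at 6225, 6457, 6035 and 6469.9 normalized reads in low glucose and at 5840.2, 5869, 5759 and 5578 in high glucose. These groups did not overlap either, but the shift was small, at -0.13 on the log2 scale (SE 0.03, limma adjusted p = 0.00951). The call was lost under quantile rescaling (adjusted p = 0.0624) and without variance moderation (adjusted p = 0.0518, both limma). Its partner XRCC6 was at 6290.1, 6519.97, 6267 and 6397 in low glucose and at 6039.7, 6319, 6018 and 5981 in high glucose. The XRCC6 groups overlapped through replicate 2 of high glucose, and the log2 difference of -0.06 (95% CI -0.13 to -0.00) did not pass, with a limma adjusted p of 0.154.

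In the ligase complex the values were mixed in sign and no member passed in MDA-MB-231. XRCC4, the scaffold that holds LIG4, was at 177, 186, 186 and 185 normalized reads in low glucose and at 157, 168, 167 and 152 in high glucose. These groups did not overlap, with a log2 difference of -0.19 (95% CI -0.35 to -0.02), yet its limma adjusted p was 0.122. Counting non-overlap alone, XRCC4 joined PRKDC and XRCC5 as the 3 of 9 members with separate groups, where 18.7% of all genes tested had separate groups. LIG4 was at 377, 400.2, 319.6 and 447 in low glucose, a spread that enclosed all 4 high-glucose values (412, 410.2, 398 and 391). For NHEJ1 the low-glucose values were 199, 249, 215 and 217 and the high-glucose values 247, 258, 235 and 236. The log2 differences were 0.07 (95% CI -0.10 to 0.24) for LIG4 and 0.15 (95% CI -0.01 to 0.32) for NHEJ1.

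DCLRE1C, the end-trimming nuclease, was at 357, 306, 349.8 and 367 normalized reads in low glucose and at 389, 352, 363 and 367 in high glucose, with overlapping groups and a log2 difference of 0.10 (95% CI -0.04 to 0.24). POLL was at 432, 406, 387 and 355 in low and at 504, 415, 453 and 469 in high glucose, overlapping through 1 sample of each group. Its log2 fold change was 0.22 (SE 0.07, limma adjusted p = 0.0422). That call was lost in 10 of 23 alternatives, including the omission of low-glucose replicate 2, 3 or 4 or of high-glucose replicate 1, 3 or 4, which gave values between 0.17 and 0.24. POLM, the second gap-filling polymerase, was at 394, 438, 445 and 415 in low and at 457, 444, 459.8 and 454 in high glucose, with a log2 difference of 0.10 (95% CI -0.01 to 0.22).

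In MDA-MB-468, the same question gave another set of genes. XRCC6 rose, whereas PRKDC, all 3 genes of the ligase complex (LIG4, XRCC4 and NHEJ1) and the nuclease gene DCLRE1C fell. XRCC5, POLL and POLM did not pass the test. Thus 6 of 9 members were called, with 1 higher and 5 lower, in a comparison where 47.6% of 15757 genes tested were called, 24.9% higher and 22.7% lower. The members' median log2 fold change was -0.16, against 0.00 for all genes tested. The proliferation markers summed to 1684 to 1711 CPM in low glucose and 1730 to 1783 CPM in high glucose, with 7 of 12 higher and 1 (MKI67) lower. After length correction PLK1, CCNA2 and MCM2 kept their rises and MKI67 its fall. The rises of CCNB1, AURKA, AURKB and PCNA lost their calls (limma adjusted p from 0.0980 to 0.413).

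XRCC6 was at 8737, 9162, 8748 and 8481 normalized reads in the low-glucose samples of MDA-MB-468 and at 10059.9, 9485, 10336 and 9882 in the high-glucose samples. All high-glucose samples were above all low-glucose samples. The log2 fold change was 0.18 (SE 0.03, limma adjusted p = 0.000209), kept in all 23 alternatives. DESI1, on the other side of the 119 nt printed above, rose as well, from a mean of 882 to 1041 normalized reads (log2 fold change 0.24, limma adjusted p = 0.000361). XRCC6P2, the 1 of 5 annotated processed pseudogenes of XRCC6 that has values here, had mean values of 10.8 to 16.02 normalized reads in the 4 groups. XRCC5 did not follow its partner: its values were 10232, 10795, 10239.5 and 10275.5 in low and 10746, 10066, 10732 and 10169 in high glucose. The XRCC5 groups overlapped, with 2 high-glucose samples beneath all low-glucose samples, and the log2 difference was 0.01 (95% CI -0.06 to 0.07), with a sign that turned in 9 of 23 alternatives.

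PRKDC was at 7519, 8009, 8007 and 8394 normalized reads in low glucose and at 6796, 7468, 7137 and 7108 in high glucose. The groups did not overlap, although the highest high-glucose value lay close to the lowest low-glucose value. The log2 fold change was -0.16 (SE 0.04, limma adjusted p = 0.00120). A correction for transcript length took it to -0.05 (limma adjusted p = 0.195). Long transcripts as a class were lower in high glucose here, since the 1134 genes of at least 8000 nt had a median log2 fold change of -0.10, and 65.4% of these had a lower mean. PRKDC was the 1 member called lower in both lines, as were 3.02% of the 13573 genes tested in both. Its neighbor MCM4 did not pass in MDA-MB-468 (log2 difference 0.01, limma adjusted p = 0.893).

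The ligase complex was lower in all of its 3 genes, of which only NHEJ1 kept its call after GC correction. LIG4 was at 529.8, 545, 525 and 522 normalized reads in low glucose and at 456, 469, 485 and 472 in high glucose, tight groups that did not overlap. Its log2 fold change was -0.17 (SE 0.05, limma adjusted p = 0.00701). The call was lost after GC correction (-0.09, adjusted p = 0.137) and when the spread was estimated over all 16 samples (adjusted p = 0.0603, both limma). ABHD13, which starts 24 nt away, went the other way with a log2 fold change of 0.26 (limma adjusted p = 0.0110, kept in 22 of 23 alternatives).

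NHEJ1, which bridges XRCC4 across the break, was at 474, 465, 505 and 532 normalized reads in low and at 417, 412, 433 and 418 in high glucose. No high-glucose sample reached the lowest low-glucose sample. The log2 fold change was -0.23 (SE 0.06, limma adjusted p = 0.00254), and all 23 alternatives kept the call. XRCC4 had few reads, on average 117 a sample in low and 83.8 in high glucose, and its normalized values were 112, 90.7, 103 and 114 in low and 96.2, 75.4, 74.4 and 86.0 in high glucose. Its groups overlapped. The log2 fold change was -0.34 (SE 0.12, limma adjusted p = 0.0301) and lost its call in 8 of 23 alternatives. Among these were GC correction (-0.26, limma adjusted p = 0.0987) and DESeq2 on recovered reads (adjusted p = 0.0675). The call was also lost on omission of low-glucose replicate 1, 3 or 4 or of high-glucose replicate 2 or 3, which gave -0.35 to -0.29. TMEM167A, whose start crosses that of XRCC4, rose by 0.11 on the log2 scale (limma adjusted p = 0.0288, kept in 19 of 23 alternatives).

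DCLRE1C had the largest change of any member in either line. It was at 347, 354, 329.97 and 348 normalized reads in low glucose and at 279, 258, 205 and 262 in high glucose. The low-glucose samples were close together, and the highest high-glucose sample lay well beneath them. The log2 fold change was -0.47 (SE 0.08, limma adjusted p = 0.000224), kept in all 23 alternatives between -0.52 and -0.37. SUV39H2, which overlaps it on the opposite strand, had a log2 difference of 0.04 that did not pass (limma adjusted p = 0.623). With XRCC6, PRKDC, LIG4 and NHEJ1, DCLRE1C made 5 of 9 members with separate groups, where 42.5% of all genes tested had separate groups.

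The polymerases gave no call in MDA-MB-468. POLL was at 259, 209, 233 and 228 normalized reads in low and 235, 227, 252 and 229 in high glucose, and POLM at 290.2, 239.995, 280.1 and 293 in low and 282, 289, 322 and 276 in high glucose. Both pairs of groups overlapped. The log2 differences were 0.02 (95% CI -0.14 to 0.19) for POLL and 0.09 (95% CI -0.08 to 0.25) for POLM. DPCD, which encloses POLL, rose by 0.40 on the log2 scale (limma adjusted p = 0.0250, kept in 17 of 23 alternatives). Length correction took it to 0.30 (limma adjusted p = 0.0746).

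**Figure D3:**
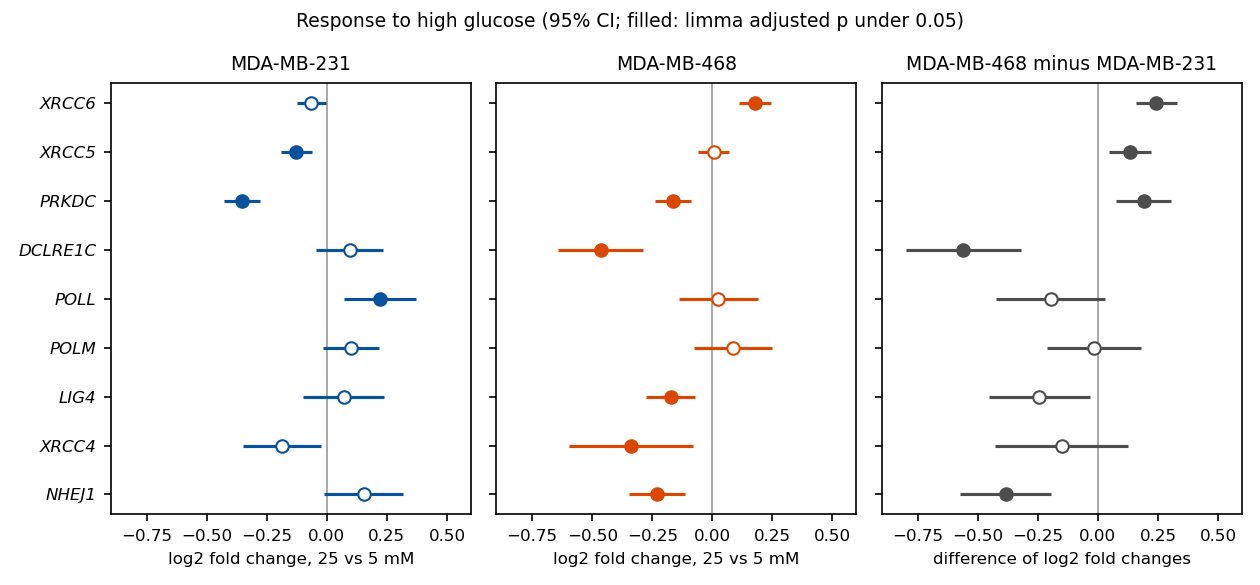
Log2 fold change of the 9 genes in high against low glucose in each line, and the difference of these responses (MDA-MB-468 minus MDA-MB-231), with 95% confidence intervals and filled points where the limma adjusted p was under 0.05. PRKDC lies left of 0 in both lines, while the responses of DCLRE1C and NHEJ1 differ most between lines (-0.56 and -0.38).

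The difference of the responses was then tested itself, in 1 limma model over the 16 samples. DCLRE1C and NHEJ1 responded more negatively in MDA-MB-468, and the Ku and DNA-PK genes less negatively or more positively. Here 5 of 9 members passed, 3 more positive and 2 more negative in MDA-MB-468, where 30.9% of 17115 genes did (17.0% and 13.9%). The difference was -0.56 for DCLRE1C (SE 0.11, limma adjusted p = 0.00113) and -0.38 for NHEJ1 (SE 0.09, limma adjusted p = 0.00338). For XRCC6 it was 0.24 (SE 0.04, limma adjusted p = 0.000231), and these 3 differences were kept in all 30 alternatives. PRKDC differed by 0.19 (limma adjusted p = 0.0124), so its fall was larger in MDA-MB-231, but not under quantile rescaling (0.08, limma adjusted p = 0.318). For XRCC5 the difference of 0.13 (limma adjusted p = 0.0229) became 0.05 under quantile rescaling (adjusted p = 0.397). It also just missed the threshold, at values of 0.12, without replicate 4 of high-glucose MDA-MB-231 or without replicate 1 or 3 of high-glucose MDA-MB-468 (limma adjusted p from 0.0502 to 0.0511).

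The difference for LIG4 was -0.24 (95% CI -0.45 to -0.03, limma adjusted p = 0.0759). Without replicate 4 of low-glucose MDA-MB-231, the highest of that group, it passed at -0.32 (limma adjusted p = 0.00738), as it did under quantile rescaling at -0.27 (limma adjusted p = 0.0469). XRCC4, POLL and POLM gave differences of -0.15 (95% CI -0.43 to 0.13), -0.20 (95% CI -0.42 to 0.03) and -0.02 (95% CI -0.21 to 0.18), which did not pass. The calls of XRCC4 in MDA-MB-468 and of POLL in MDA-MB-231 were thus not shown to differ between the lines.

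The lines differed in most members whatever the glucose, as they did in most genes. In low glucose 8 of 9 members passed, where 85.4% of 17115 genes passed (45.0% higher and 40.4% lower in MDA-MB-468), and 8 of 9 had separate groups, where 80.5% of genes did. XRCC5, XRCC6, PRKDC, LIG4 and NHEJ1 were higher in MDA-MB-468, with log2 differences of 0.72, 0.46, 0.32, 0.47 and 1.17. XRCC4, POLL and POLM were lower there, with log2 differences of -0.80, -0.76 and -0.62. NHEJ1 showed the largest contrast, a mean of 494 ± 30.7 normalized reads in MDA-MB-468 against 219.8 ± 20.7 in MDA-MB-231 (SD, n = 4). DCLRE1C had the same mean in both lines in low glucose, 345 ± 26.7 for MDA-MB-231 and 345 ± 10.3 for MDA-MB-468, with a log2 difference of 0.00 (95% CI -0.17 to 0.17). GC correction alone set DCLRE1C lower in MDA-MB-468 (-0.18, limma adjusted p = 0.0404).

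In high glucose all 9 members passed, where 85.2% of genes did (44.6% higher and 40.6% lower in MDA-MB-468), and all 9 had separate groups, where 79.9% of genes did. DCLRE1C was now lower in MDA-MB-468, by a log2 difference of -0.56 (SE 0.08, limma adjusted p = 4.84e-06). The other log2 differences were 0.86 for XRCC5, 0.71 for XRCC6, 0.51 for PRKDC, 0.22 for LIG4 and 0.78 for NHEJ1, and -0.95 for XRCC4, -0.96 for POLL and -0.63 for POLM. Both line contrasts share their samples with the glucose comparisons and add no independent evidence on glucose.

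Genes that act at the same step were also compared within each library, since a ratio inside a library does not depend on its size factor. PRKDC relative to Ku (the geometric mean of XRCC5 and XRCC6) was lower in high glucose in both lines. In MDA-MB-231 the log2 ratio was between -0.08 and 0.08 in low glucose and between -0.34 and -0.19 in high glucose. In MDA-MB-468 it was between -0.33 and -0.15 in low glucose and between -0.61 and -0.39 in high glucose. The groups did not overlap, and the mean log2 ratio differed by -0.26 in each line. In both, a two-sided exact permutation test, with 70 ways to split 8 samples, gave p = 0.0286, the smallest it can give, and 0.0762 after adjustment over the 8 ratios tested. The transcript of PRKDC is much longer than those of the Ku genes, and with values corrected for transcript length (an alternative chosen after seeing the data) the difference was -0.18 in MDA-MB-231 without overlap. In MDA-MB-468 it shrank to -0.10 with overlapping groups (exact permutation p = 0.0857, adjusted 0.137).

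XRCC6 relative to XRCC5 was higher in high glucose in MDA-MB-468, with log2 ratios of -0.28 to -0.23 in low and -0.10 to -0.04 in high glucose and no overlap (difference 0.17, exact permutation p = 0.0286, adjusted 0.0762). In MDA-MB-231 that ratio overlapped between the groups (difference 0.06, exact permutation p = 0.0571, adjusted 0.0914). XRCC4 relative to LIG4 differed by -0.26 in MDA-MB-231 (exact permutation p = 0.0571, adjusted 0.0914) and by -0.17 in MDA-MB-468 (exact permutation p = 0.229, adjusted 0.261). With length-corrected values this ratio differed by -0.30 in MDA-MB-231 without overlap (exact permutation p = 0.0286, adjusted 0.0762). In MDA-MB-468 the corrected groups overlapped (-0.24, exact permutation p = 0.143, adjusted 0.190). For POLM relative to POLL the differences were -0.12 and 0.06 (exact permutation p = 0.229 and 0.343). None of the 8 ratios passed 0.05 after adjustment, which a design of 4 against 4 could reach only if several ratios separated at once.

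**Figure D4:**
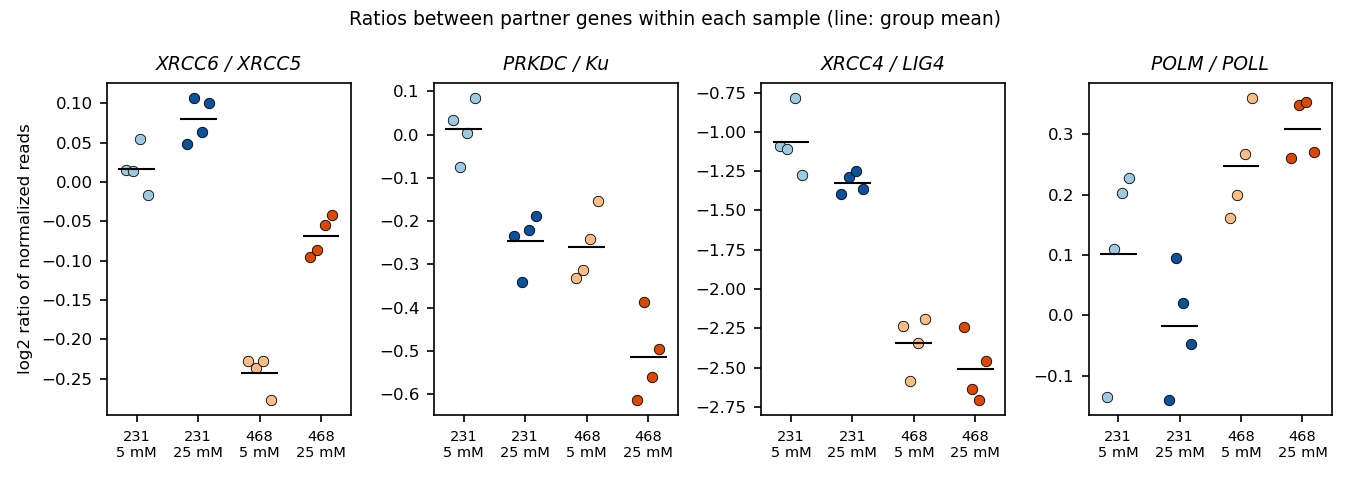
Log2 ratio of normalized reads between partner genes in each sample, with the group mean as a line (axes differ and do not start at 0; Ku is the geometric mean of XRCC5 and XRCC6). The ratio of PRKDC to Ku is lower in every high-glucose sample than in any low-glucose sample of the same line.

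Proteins that assist or compete with end joining were described from lists of genes. Among 11 accessory factors of end joining, 1 passed in MDA-MB-231 (lower) and 6 of the 10 tested in MDA-MB-468 (2 higher, 4 lower), where 15.1% and 47.6% of all genes tested were called. TDP1, which removes topoisomerase fragments from DNA ends, fell by 0.27 on the log2 scale in MDA-MB-231 and rose by 0.25 in MDA-MB-468, each with the call kept in 23 of 23 alternatives. In MDA-MB-468, PAXX, a paralog of XRCC4, rose by 0.18 (call kept in 12 of 23). APLF, an end-joining scaffold, ERCC6L2 and SETMAR had log2 fold changes there of -0.71, -0.46 and -0.26 (SETMAR kept in 20 of 23). IFFO1 was under the expression filter in that line. The list median was -0.07 for MDA-MB-231 and -0.03 for MDA-MB-468.

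Of 15 genes of break sensing and end protection, 1 rose and 5 fell in MDA-MB-231, and 3 rose and 7 fell in MDA-MB-468. Over all genes tested, 5.71% rose and 9.37% fell in MDA-MB-231, and 24.9% rose and 22.7% fell in MDA-MB-468. The kinase gene ATM fell by 0.74 on the log2 scale in MDA-MB-468, from a mean of 1315 to 789.9 normalized reads, and was at -0.06 in MDA-MB-231 without passing. MRE11, the nuclease that competes with Ku for ends, had log2 fold changes of -0.19 in MDA-MB-231 (kept in 14 of 23 alternatives) and -0.53 in MDA-MB-468. Its partner RAD50 was higher by 0.18 in MDA-MB-231 (kept in 15 of 23) and lower in MDA-MB-468 (-0.16, kept in 21 of 23). H2AX, the histone marked at breaks, fell by 0.23 in MDA-MB-231 (kept in 22 of 23) and rose by 0.35 in MDA-MB-468. PAXIP1 fell by 0.23 in MDA-MB-231 (kept in 18 of 23). In MDA-MB-468, MAD2L2 and RNF8 rose by 0.58 and 0.15 (RNF8 kept in 20 of 23). RIF1, which protects ends from resection, fell there by 0.31. The medians were -0.09 and -0.13.

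Of the alternative end-joining genes, POLQ, PARP1 and FEN1 fell in MDA-MB-231 and rose in MDA-MB-468, and RBBP8, which starts end resection, fell in both. In MDA-MB-231, 4 of the 6 genes fell and 0 rose (15.1% of all genes tested called). The log2 fold changes were -0.41 for the flap nuclease FEN1, -0.39 for the polymerase POLQ and -0.27 for PARP1. POLQ and RBBP8 each kept the MDA-MB-231 call in 22 of 23 alternatives. In MDA-MB-468, where 47.6% of all genes tested were called, 4 rose and 2 fell: POLQ by 0.66, PARP1 by 0.38 and FEN1 by 0.17 upward, and the ligase LIG3 (-0.62) and RBBP8 (-0.26) downward. The difference between lines passed for 5 of 6 genes, with 4 more positive in MDA-MB-468 and LIG3 more negative, where 30.9% of all genes passed. The difference for RBBP8 did not pass (limma adjusted p = 0.247), and the list medians were -0.23 and 0.16. FEN1, POLQ and PARP1 thus fell in MDA-MB-231, where all 12 proliferation markers fell. In MDA-MB-468 FEN1, POLQ and PARP1 rose, while the markers were mixed. Before length correction 7 of 12 markers were higher, 1 lower and 4 not called. The part of proliferation was not tested.

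Relatives of the members were given by family. Among the 6 genes of the PRKDC family, PRKDC and TRRAP (-0.16, kept in 15 of 23) fell in MDA-MB-231, where 9.37% of genes fell. In MDA-MB-468, where 22.7% of genes fell, 4 of the 6 did, the largest falls being ATM, SMG1 (-0.40) and PRKDC. The transcripts of this family are long, 8158 to 16062 nt. After length correction TRRAP lost its MDA-MB-231 call (-0.09, limma adjusted p = 0.186) and PRKDC kept it. SMG1 became higher there (0.12, limma adjusted p = 0.0208). In the other line PRKDC and MTOR lost their calls (limma adjusted p = 0.195 and 0.496), and ATM (-0.62) and SMG1 (-0.27) kept theirs. Among the 3 DNA ligases, LIG1, which joins replication fragments, fell by 0.38 in MDA-MB-231, and LIG3 and LIG4 fell in MDA-MB-468. In the SNM1 nuclease family, DCLRE1A and DCLRE1B rose by 0.59 and 0.26 in MDA-MB-468, opposite to DCLRE1C, and none of the 3 passed in MDA-MB-231. In the XRCC4 superfamily, SASS6, a centriole protein, fell in both lines (-0.24, kept in 11 of 23, and -0.64), and CCDC61 passed in neither. POLB, the base-excision polymerase, passed in neither line. Of the V(D)J recombination genes, RAG1 was under the filter in MDA-MB-231 and had a log2 difference of 0.22 in MDA-MB-468 that did not pass (limma adjusted p = 0.0994), and RAG2 and DNTT were not analysed here.

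**Figure D5:**
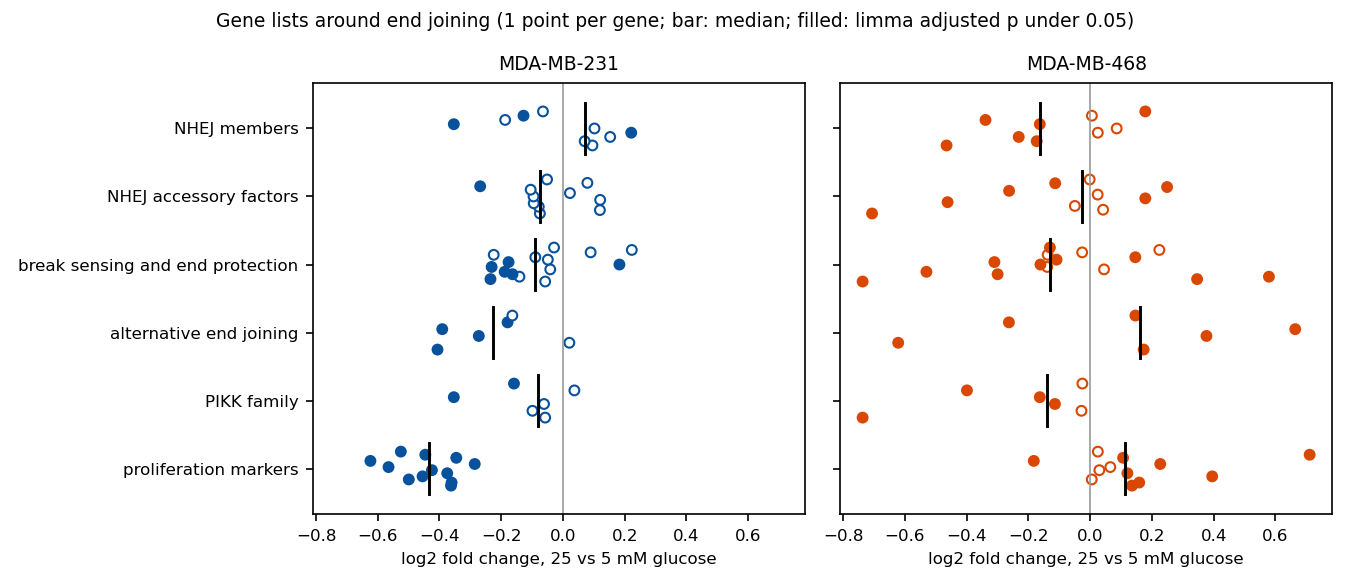
Log2 fold change in high against low glucose for 6 gene lists, drawn for each line, with 1 point per gene, filled where the limma adjusted p was under 0.05, and a bar at the list median. The proliferation markers lie at a median of -0.44 for MDA-MB-231 and 0.11 for MDA-MB-468, and PRKDC is drawn both with the members and with its kinase family.

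Finally, the gene whose log2 level followed a member most closely over the 16 samples was sought among 9327 genes with at least 5 CPM in every sample. The nearest were STMN1 for XRCC5 (Pearson's r = 0.998), TFRC for PRKDC (0.977), ZZZ3 for LIG4 (0.949), WDR37 for XRCC4 (0.979) and ABCB6 for NHEJ1 (0.990). For the nuclease and polymerases they were DDX6 for DCLRE1C (0.919), CTNS for POLL (0.987) and TMEM216 for POLM (0.984). The 16 points share lines and libraries, so that these values mostly describe the contrast between lines. Within groups, with each group's mean removed, XRCC5 and XRCC6 remained the closest pair of members (r = 0.799 over 16 samples, against 0.976 with the group means left in).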

How the data were processed

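RNA sequencing libraries of MDA-MB-231 and MDA-MB-468 cells in 5 mM and 25 mM glucose (4 samples a group, 16 in all, grouped by their labels) were analyzed. The methods detail the tumor libraries and describe these cell lines only up to sequencing; for the former the authors trimmed reads with Trimmomatic and aligned them with TopHat to hg19 with an Ensembl annotation, while the submitters' processing notes for these samples name hg38 and edgeR, and the build used could not be settled. The sources name both NextSeq and HiSeq as sequencer. A stranded kit is named for the tumor libraries, and the kit of these libraries, the counting program and its use of strand are not given in the sources used here. The authors deposited a normalized signal for every gene, which is its read number over a library-wise size factor. In every library 100% of values were whole multiples of the value of 1 read (tolerance 0.01 read), so reads were recovered, 14094597 to 24425916 per library. A floor of 3 reads corresponds to 0.123 to 0.213 CPM and covers counting error only. Coordinates, lengths and sequences are from a GENCODE annotation lifted to GRCh37, with 17647 of 18332 IDs found and symbols for 16633.

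Each fit kept genes reaching 0.5 CPM in at least 2 of its samples and used limma 3.58.1 under R 4.3.3 (lmFit, eBayes with trend) on log2(value + 1), two-sided, with Benjamini-Hochberg adjustment over all genes tested and a threshold of 0.05. Fold changes are on that log2(value + 1) scale. Each line was fitted alone for glucose, and 4 group means over 16 samples gave the line contrasts and the difference between lines. All 9 members passed the filter in every fit. Within-sample ratios were compared by exact permutation tests. The named genes were the members, up to 3 rises and 3 falls past the threshold per list and line, the neighbors starting within 1 kb on the opposite strand, overlapping genes, and the nearest gene by Pearson's r (that for XRCC6 is not reported here). PTPRC, COL1A1 and other markers are given as levels only. The members and lists were chosen with earlier results of these data known. The alternatives were other pseudocounts, filters, scalings and spread estimates, the replicate number as a block, length and GC corrections (length also for the ratios, chosen after seeing the data), edgeR 4.0.16 and DESeq2 1.42.0 on the recovered reads, and leaving out each replicate. The steps were tested on simulated data.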

Additional observations from a re-analysis of the deposited data

Results flagged for a closer look

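A single sample stood apart from the other 3 of its group in 3 of the 36 member-by-group sets examined with Dixon's test at 95%, where chance alone flags about 1 in 20 sets. XRCC5 was at 10795 normalized reads in replicate 2 of low-glucose MDA-MB-468, above the 10232 to 10275.5 of the other samples. PRKDC was at 4811 in replicate 2 of high-glucose MDA-MB-231, beneath the 5052 to 5069 of the others. XRCC4 was at 177 in replicate 1 of low-glucose MDA-MB-231, against 185 to 186 in the others.

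The response to glucose differed between the lines for 5 of 9 members, where 30.9% of 17115 genes passed. The test was limma's interaction contrast (MDA-MB-468 minus MDA-MB-231, log2 scale, 16 samples). XRCC5 differed by 0.13 (adjusted p = 0.0229), XRCC6 by 0.24 (0.000231), PRKDC by 0.19 (0.0124), NHEJ1 by -0.38 (0.00338) and DCLRE1C by -0.56 (0.00113). Under quantile rescaling XRCC5 (0.05, limma adjusted p = 0.397) and PRKDC (0.08, limma adjusted p = 0.318) lost the call.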

How the results depend on the processing

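The 45 member results (9 genes, 5 comparisons) were recomputed 1224 times, and 1191 kept their direction or stayed uncalled on the same side of the threshold, 29 lost the call, 3 gained it and 1 turned from uncalled to called with the other sign. That last was DCLRE1C between lines in low glucose, at -0.18 under GC correction; the cause was not tested. The number of genes called in MDA-MB-231 was 2245, and 1297 without variance moderation. The labels do not say whether the replicate numbers pair the samples. Correlations of same-numbered deviations from group means were between -0.04 and 0.03. The own number was the best match for 0 of 4 numbers in MDA-MB-231 and 3 of 4 in MDA-MB-468. With 4 samples a group, such values cannot settle whether the samples were paired. With the replicate block 1624 genes were called in MDA-MB-231, 7383 in MDA-MB-468 and 5062 for the difference, and POLL lost its call in MDA-MB-231 (adjusted p = 0.0553, limma). Leaving out a replicate gave 1629 to 2389, 6759 to 7398 and 4913 to 5467 genes. Precision was lowest for XRCC4 in MDA-MB-468, which had the fewest reads of any member.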
